A study of Mus musculus with 18 samples.

Results

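The genes described here are the receptors of the TREM family and the molecules through which they signal: the receptor genes Trem1, Trem2, Trem3, Treml2 and Treml4, the adaptor genes Tyrobp and Hcst, and the kinase gene Syk. They were taken from the deposited gene counts by symbol, and are 8 of the 53465 genes in the table. Counts came from 18 libraries of microglia and macrophages of 9 adult female C57BL/6J mice with a contusion injury of the spinal cord. All mice were wild type and injured, and no uninjured mouse was analysed here. At 48 h after injury the cord was injected with PBS (mice 1, 2 and 3), recombinant interleukin-13 (rIL-13, mice 5, 6 and 7) or recombinant interleukin-4 (rIL-4, mice 8, 9 and 10), and 24 h later both cell types were sorted from the same cord, as CD45low CD11b+ F4/80+ microglia and CD45high CD11b+ F4/80+ macrophages. Each of the 6 groups therefore held 3 mice, and each library was the cells of 1 mouse. The total was 35961305 to 45849829 counts per library. Levels are given as CPM, the counts of a gene divided by the TMM-scaled total of its library, a unit that can be compared between libraries but not between genes of different length.

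TREM receptors are membrane proteins of myeloid cells. TREM1, TREM2 and TREM3 have short cytoplasmic tails without a signalling motif and pair with DAP12, the product of Tyrobp, whose immunoreceptor tyrosine-based activation motif is phosphorylated after the receptor binds its ligand and then recruits the kinase SYK. DAP10, the product of Hcst, has a motif that recruits phosphoinositide 3-kinase instead. In the nervous system TREM2 is known as a sensor of lipids and apolipoproteins on microglia that maintains their phagocytosis and survival, whereas TREM1 is known as an amplifier of inflammatory responses in neutrophils and monocytes.

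The 5 receptor genes lie on the plus strand of chromosome 17 (GRCm38), in a cluster that also holds other genes: Trem1 (ENSMUSG00000042265.13) from 48232768 to 48246924, Trem3 (ENSMUSG00000041754.5) from 48247777 to 48258841, Treml4 (ENSMUSG00000051682.15) from 48264295 to 48275360, Treml2 (ENSMUSG00000071068.6) from 48299498 to 48312533, and Trem2 (ENSMUSG00000023992.14) from 48346401 to 48354147. The adaptor genes form a second cluster on chromosome 7, where Tyrobp (ENSMUSG00000030579.10, plus strand, 30413760 to 30417585) and Hcst (ENSMUSG00000064109.8, minus strand, 30417712 to 30419854) point at each other with 127 bases between their ends. The library method does not mark strand, but the 2 genes share no exon. Syk (ENSMUSG00000021457.14) is on chromosome 13 from 52583173 to 52648792. Few 31-base words of these transcripts occur in transcripts of other genes, at most 0.703% for Trem1, so that little of their count could be shared with a paralog.

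Promoters are printed for the 3 receptor genes on which the comparisons turn, Treml4 and Trem2, which were lower after rIL-4 in macrophages, and Trem1, which differed between the cell types with each treatment. Each window runs from 250 bases before to 50 bases after the gene's start in RefSeq, on GRCm38.p6 and the plus strand. Capitals mark GAGGAA, the core that the myeloid factor PU.1 binds, read on either strand (as TTCCTC on the minus strand).
Treml4, chr17:48264045-48264344: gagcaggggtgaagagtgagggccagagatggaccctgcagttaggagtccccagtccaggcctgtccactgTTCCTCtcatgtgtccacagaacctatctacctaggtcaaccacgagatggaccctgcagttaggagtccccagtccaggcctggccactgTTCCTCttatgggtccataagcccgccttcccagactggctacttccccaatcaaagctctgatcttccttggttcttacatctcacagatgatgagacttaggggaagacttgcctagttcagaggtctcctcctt
Trem2, chr17:48346151-48346450: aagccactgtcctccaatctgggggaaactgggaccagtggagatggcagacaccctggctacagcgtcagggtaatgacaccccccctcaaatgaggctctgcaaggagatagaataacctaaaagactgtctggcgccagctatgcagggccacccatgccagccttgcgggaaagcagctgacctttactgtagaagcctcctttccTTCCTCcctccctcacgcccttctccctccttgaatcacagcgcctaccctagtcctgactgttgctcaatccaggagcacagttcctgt
Trem1, chr17:48232489-48232788: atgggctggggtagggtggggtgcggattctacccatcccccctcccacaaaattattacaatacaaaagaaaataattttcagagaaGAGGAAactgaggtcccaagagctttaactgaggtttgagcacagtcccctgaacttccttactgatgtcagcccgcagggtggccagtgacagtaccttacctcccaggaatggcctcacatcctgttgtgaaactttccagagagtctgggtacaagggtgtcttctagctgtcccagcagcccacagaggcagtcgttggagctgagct
Counted from 0 at the first base of the gene, GAGGAA started at -178 and -87 in Treml4, at -40 in Trem2 and at -162 in Trem1. The Treml4 window holds 2 copies of a 40-base repeat, from -225 and from -134, and each of its matches follows a copy at the same distance. The core is common, and 28.3% of 32851 promoters of this length hold it. TTC followed by GAA at a distance of 4 bases, the spacing that STAT6, the factor downstream of the interleukin-4 receptor, prefers, is in 6.95% of all promoters and in none of the windows of the 5 members with an entry, which are these 3 genes, Hcst and Syk.

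The sorted populations were first checked against marker genes. The summed level of 10 microglia markers was higher in microglia than in macrophages of the same mouse in all 9 mice. In microglia it was 5622 to 10070 CPM with PBS, 2590 to 6641 CPM with rIL-13 and 2425 to 4125 CPM with rIL-4. In macrophages it was 2679 to 3833, 1118 to 2296 and 482.8 to 859.8 CPM in the same order, so that it was lower with rIL-4 in both cell types. The sum of 10 markers of monocyte-derived macrophages was 2556 to 3160 CPM in PBS macrophages, 5967 to 9159 CPM with rIL-13 and 7040 to 8425 CPM with rIL-4. These markers did not move as one. Ccr2 was at 180.4 to 249.9, 156.1 to 553.2 and 225.3 to 389.3 CPM in the same order. Ly6c2 was at 60.4 to 257, 32.5 to 229.7 and 52.6 to 203.6 CPM, and for both genes the cytokine groups overlapped PBS. In microglia the sum was 733.9 to 936.7, 864 to 1138 and 1079 to 1888 CPM, with counts for all 10 genes in each group. The sum of 12 neutrophil markers was 312 to 1891 CPM in 8 macrophage libraries and 3493 CPM in the rIL-13 macrophages of mouse 6, although the sort kept F4/80+ cells. Microglia libraries held 93.1 to 329.8 CPM of neutrophil markers and 217 to 3549 CPM of 8 fibroblast and pericyte markers, except that the latter reached 8080 CPM in the rIL-13 microglia of mouse 6. Microglia libraries also held 664.8 to 2516 CPM of 5 endothelial markers, lowest with PBS. In macrophages these were at 22.4 to 28.8 CPM with PBS, 143 to 218 CPM with rIL-13 and 229 to 434.6 CPM with rIL-4, with the cytokines most of it Pecam1, while Cldn5 and Cdh5 were at most 3.39 CPM in all 9 libraries. The part of these cell types in the results was not tested. The libraries of mice 6 and 9 stood apart from the others of their groups. Compared pairwise over genes, counts of mouse 6 differed from those of mice 5 and 7 with a chi-square per degree of freedom of 256 to 290.0, against 118 and 200.0 between mice 5 and 7, and those of mouse 9 from mice 8 and 10 with 222 to 345, against 140.0 and 179 between mice 8 and 10. Fold changes of members that are printed for rIL-13 or rIL-4 are also given without these libraries. In bulk libraries such as these, fewer cells of a type and less RNA per cell cannot be told apart.

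Tyrobp was the most abundant member in every group and Trem2 the second, far above the other receptors. Per kilobase of the longest protein-coding transcript, which allows genes to be set side by side, the level of Tyrobp in PBS microglia was 1397 ± 184 CPM per kilobase (SD, n = 3) and that of Trem2 was 414 ± 82.2. Syk followed at 12.0 ± 1.12 and Hcst at 11.8 ± 3.75, which overlapped. Treml2 stood at 3.25 ± 1.42, Trem1 at 2.99 ± 0.884, Trem3 at 1.24 ± 1.04 and Treml4 at 0.985 ± 1.12 CPM per kilobase, and each overlapped its neighbour in this order. In PBS macrophages the order began with Tyrobp at 1991 ± 300.4 and Trem2 at 519 ± 25.1 CPM per kilobase. Trem1, at 30.96 ± 9.46, was there the third, level with Syk at 26.1 ± 1.16 and ahead of Hcst at 18.4 ± 3.94. Trem3, Treml4 and Treml2 were lowest, at 8.66 ± 2.67, 4.57 ± 1.13 and 3.76 ± 1.58 CPM per kilobase. Tyrobp and Trem2 kept the first 2 places in all 6 groups also when the union of all annotated exons was used as length, although the level of Trem2 in PBS microglia was then 91.1 ± 18.1 CPM per kilobase. Its union of exons has 4946 bases, most of them in a transcript with a retained intron, whereas its longest coding transcript has 1088 bases.

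**Figure D1:**
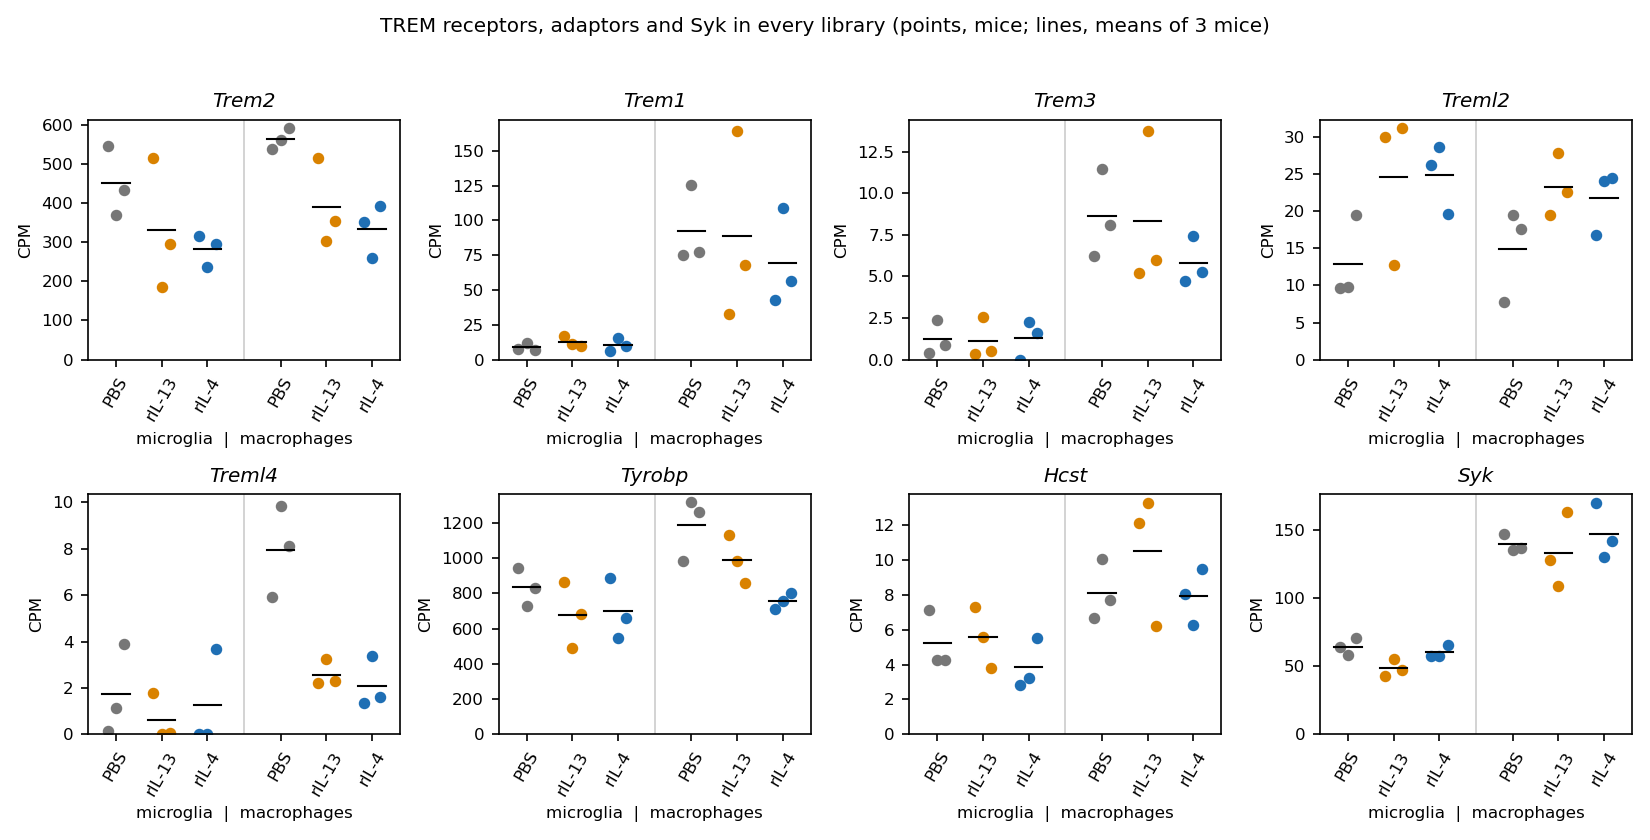
Levels of the 8 genes in CPM (vertical axes, each from 0) in the 18 libraries, by treatment and cell type; points are mice and lines are means of 3 mice. Trem1, Trem3 and Syk are higher in every macrophage library than in any microglia library, and Treml4 is higher in the 3 PBS macrophage libraries, at 5.91 to 9.85 CPM, than in any other library.

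Whether the injected cytokines changed these genes was asked first in macrophages, where 3 of the 8 members were lower with rIL-4: Treml4, Trem2 and the adaptor Tyrobp. In this comparison edgeR's quasi-likelihood test called 14.0% of 13606 genes in either direction, 7.2% lower and 6.77% higher, which is the background against which 3 of 8 is to be read. The median log2 fold change of the members was -0.49, and that of all genes tested was 0.02. None of the 8 was called higher.

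Treml4, a receptor that binds dying cells, fell most. It was at 5.91, 9.85 and 8.12 CPM in the macrophages of PBS mice 1, 2 and 3, and at 1.33, 3.37 and 1.59 CPM in those of rIL-4 mice 8, 9 and 10. Every rIL-4 library was below every PBS library, on 56 to 129 counts against 209 to 323. The log2 fold change was -1.93 (SE 0.38), with an adjusted p of 0.00764 in edgeR's test. rIL-13 macrophages of mice 5, 6 and 7 stood at 2.19, 3.25 and 2.28 CPM, also below all PBS libraries. Within each treatment Treml4 was highest in mice 2, 6 and 9, whose macrophages also had the highest sum of neutrophil markers, and that sum was 1149 to 1891 CPM with PBS, 637 to 3493 CPM with rIL-13 and 312 to 1040 CPM with rIL-4. The part of these markers in the level of Treml4 was not tested. Treml4 fell by 1.62 (SE 0.37) on the log2 scale with rIL-13, with an adjusted p of 0.0404 in edgeR's test. It was the only 1 of 8 members called with rIL-13, where 4.19% of all genes were called and 1.66% were lower. The rIL-4 call held when any library was left out, with an adjusted p of at most 0.0397. The rIL-13 call was lost without PBS mouse 1 (adjusted p of 0.0641 in edgeR's test), 2 (0.141) or 3 (0.131), rIL-13 mouse 5 (0.118) or 7 (0.132) and rIL-4 mouse 10 (0.0573), and it held without mouse 6 (-1.81, adjusted p of 0.0461 in edgeR's test). When all 18 libraries shared an estimate of the spread, the adjusted p in edgeR's test was 0.7 for rIL-4 and 0.961 for rIL-13, at log2 fold changes of -1.92 and -1.63.

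Trem2 was lower after rIL-4 in macrophages by a smaller amount. The levels were 539, 561 and 594 CPM in PBS mice 1, 2 and 3, 517, 303 and 355 CPM in rIL-13 mice 5, 6 and 7, and 352, 259.7 and 394 CPM in rIL-4 mice 8, 9 and 10. No rIL-4 or rIL-13 library reached the lowest PBS library, although that of rIL-13 mouse 5 came close to it. Trem2 fell by 0.75 (SE 0.21) on the log2 scale with rIL-4, with an adjusted p of 0.0414 in edgeR's test. With rIL-13 the log2 fold change was -0.52 (SE 0.21), with an adjusted p of 0.229 in edgeR's test, and it ran from -0.77 without mouse 5 (0.0772) to -0.36 without mouse 6 (0.426). The rIL-4 call was close to the threshold, and its adjusted p in edgeR's test was 0.0815, 0.0982 and 0.12 without PBS mice 1, 2 and 3, 0.0746, 0.106 and 0.0644 without rIL-4 mice 8, 9 and 10, 0.0553 without rIL-13 mouse 7 and 0.171 with all 18 libraries in a model.

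Tyrobp, which encodes the adaptor that Trem2 needs at the membrane, was at 984, 1320.1 and 1262 CPM in PBS macrophages and at 708, 758 and 799 CPM in rIL-4 macrophages of mice 8, 9 and 10. The groups did not overlap. Tyrobp fell by 0.65 (SE 0.16) on the log2 scale, with an adjusted p of 0.0201 in edgeR's test. The range of the rIL-13 macrophages lay between the other two, overlapping the PBS group, at 1132, 982 and 860.4 CPM, with a log2 fold change of -0.25 (SE 0.16) against PBS and an adjusted p of 0.448 in edgeR's test, and -0.24 without mouse 6 (0.554). The 3 rIL-4 libraries were also below the 3 rIL-13 libraries, but the difference of -0.40 (SE 0.16) had an adjusted p of 0.37 in edgeR's test, and of 0.468 at -0.41 without mouse 6. None of the 8 members was called between the cytokines in macrophages, where edgeR called 0.25% of all genes. At an unadjusted p under 0.05 it was 1 member, Tyrobp, and with the Wald test of DESeq2 it was 0 members. The rIL-4 call of Tyrobp was lost without PBS mouse 2 (adjusted p of 0.0797 in edgeR's test) or 3 (0.0885), without rIL-4 mouse 8 (0.0635) or 10 (0.0608), and with all 18 libraries in a model (0.083).

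The lower Trem2 and Tyrobp of rIL-4 macrophages went together with a lower level of microglia markers in the same libraries. All 10 of these markers had counts in all 9 macrophage libraries. Tmem119, which is among them, was at 123 to 207 CPM with PBS, 48.2 to 69.0 CPM with rIL-13 and 11.7 to 14.5 CPM with rIL-4. In microglia Tmem119 was at 378 to 644, 141 to 391 and 79.1 to 151 CPM in the same order. The part of these markers in the result was not tested. In the microglia of PBS mice themselves, Trem2 stood at 547, 371 and 434 CPM and Tyrobp at 946, 726 and 831 CPM, so that neither was more abundant per library in the microglia than in the macrophages of the same cords, except Trem2 in mouse 1.

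None of the remaining members was called in macrophages. Treml2, a family member of B cells and myeloid cells, was at 7.75, 19.5 and 17.7 CPM with PBS, 19.5, 27.9 and 22.7 CPM with rIL-13 and 16.8, 24.1 and 24.5 CPM with rIL-4. All rIL-13 libraries were above all PBS libraries, the lowest by little, and the rIL-4 libraries overlapped PBS. Its log2 fold change was 0.65 (SE 0.30) with rIL-13 and 0.54 (SE 0.30) with rIL-4, with adjusted p of 0.303 and 0.281 in edgeR's test. Without mouse 6 the fold change with rIL-13 was 0.52 (0.491). Hcst was at 6.20 to 13.2 CPM and Syk at 109 to 169.8 CPM over the 9 macrophage libraries, with overlapping groups and adjusted p of 0.568 or more in edgeR's test. Trem1 and Trem3 were not called either, with adjusted p from 0.369 to 0.971 in edgeR's test, and their groups overlapped.

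**Figure D2:**
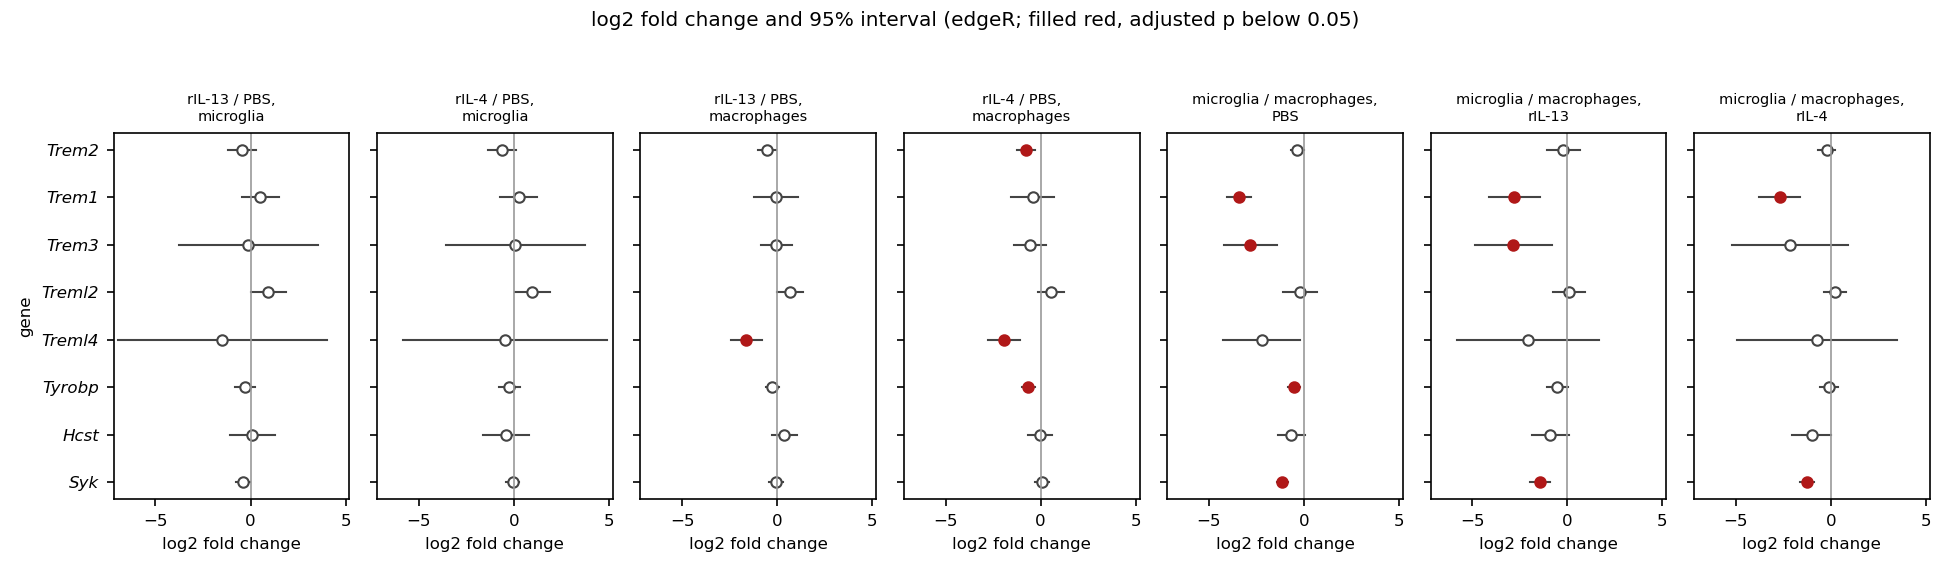
log2 fold changes of the 8 genes (horizontal axes) with their 95% intervals in 7 comparisons, from edgeR's quasi-likelihood test; filled red points have an adjusted p below 0.05 over all genes tested. Filled points appear only on the left of 0, for Treml4, Trem2 and Tyrobp with rIL-4 and Treml4 with rIL-13 in macrophages, and for Trem1, Trem3, Tyrobp and Syk between the cell types.

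In microglia, 0 of the 8 members were called with either cytokine. edgeR's test called 2.22% of 15566 genes with rIL-4, 0.366% with rIL-13 and 0.0385% between the 2 cytokines. Of the members, 1 had an unadjusted p below 0.05 with rIL-4, 2 with rIL-13 and 0 between the cytokines, and the Wald test of DESeq2 called 0 in each comparison.

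Trem2 in microglia was at 547, 371 and 434 CPM with PBS, 516, 185 and 295 CPM with rIL-13 and 315, 237 and 296 CPM with rIL-4. All rIL-4 libraries were below all PBS libraries, and rIL-13 libraries spanned both. The log2 fold change with rIL-4 had a 95% interval from -1.39 to 0.09, which includes both the fall seen in macrophages and no change. The microglia markers were lower in these libraries as well, as given above, and their part was not tested. For rIL-13 the fold was -0.43 (SE 0.33), with an adjusted p of 0.961 in edgeR's test, and it ran from -0.90 without mouse 5, whose microglia had the most Trem2 of that group, to -0.14 without mouse 6, which had the least. Tyrobp was at 946, 726 and 831 CPM with PBS, 865, 487 and 683 CPM with rIL-13 and 889, 547 and 658 CPM with rIL-4, and the groups overlapped. Its log2 fold change was -0.23 (SE 0.24) with rIL-4 and -0.29 (SE 0.24) with rIL-13, with adjusted p of 0.756 and 0.991 in edgeR's test. With rIL-13 it ran from -0.51 without mouse 5 to -0.098 without mouse 6. Within each treatment, the mouse whose microglia had the most Trem2 also had the most Tyrobp and the highest sum of microglia markers, namely mouse 1, 5 and 8.

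Treml2 had higher means with either cytokine than with PBS. It was at 9.64, 9.75 and 19.5 CPM in PBS microglia, 30.1, 12.7 and 31.2 CPM in rIL-13 microglia and 26.2, 28.6 and 19.7 CPM in rIL-4 microglia. All rIL-4 libraries were above all PBS libraries, the highest PBS library by little. The log2 fold change was 0.96 (SE 0.41) with rIL-4 and 0.93 (SE 0.41) with rIL-13, but the adjusted p was 0.284 and 0.64 in edgeR's test. Without the microglia of mouse 6, the fold with rIL-13 was 1.25 and the adjusted p in edgeR's test 0.411. Syk was at 64.2, 58.3 and 70.3 CPM with PBS and at 42.7, 55.2 and 47.5 CPM with rIL-13, where the groups did not overlap. The difference of -0.40 (SE 0.16) had an adjusted p of 0.585 in edgeR's test. Without mouse 6 it was -0.50 (0.529). With rIL-4, Syk was at 57.7, 57.2 and 65.5 CPM, which overlapped PBS.

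Treml4 and Trem3 were at the edge of detection in microglia. Treml4 had 5, 52 and 170 counts in PBS mice 1, 2 and 3, 76, 0 and 2 counts in rIL-13 mice 5, 6 and 7, and 1, 0 and 136 counts in rIL-4 mice 8, 9 and 10. These libraries had similar totals, so that the counts varied far more within a treatment than between treatments. A count of 0 allows up to 3 counts, by counting error only. Trem3 had 0 to 122 counts in the 9 microglia libraries, and no effect of a cytokine on either gene was detectable over this spread.

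Whether the response differed between the cell types was tested by the interaction term of a model of all 18 libraries. None of the 8 members was called for rIL-4 or rIL-13, where edgeR's test called 0.992% and 0.0242% of 16535 genes. At an unadjusted p below 0.05 the count was also 0, as it was with the Wald test of DESeq2. For Trem2 the rIL-4 response in microglia minus that in macrophages was 0.08 (SE 0.41), for Tyrobp 0.40 (SE 0.30) and for Treml4 1.45 (SE 2.34) on the log2 scale, with adjusted p of 1.0, 0.693 and 0.928 in edgeR's test. The fall of the 3 genes in macrophages is therefore not shown to be particular to them. The Treml4 term turned to -1.16 with the mouse as a block and to -4.99 without the rIL-4 microglia of mouse 10.

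The cell types themselves were compared within each treatment. All members that were called were lower in microglia, and Trem1 and Syk were called with PBS, rIL-13 and rIL-4 alike. In the PBS mice edgeR's test called 4 of 8 members, where 40.9% of 14715 genes were called and 16.3% were lower in microglia. It called 3 of 8 in the rIL-13 mice, where 26.7% were called and 9.46% lower, and 2 of 8 in the rIL-4 mice, where 23.4% were called and 9.97% lower.

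Trem1, the amplifier of inflammation, was far lower in microglia. In macrophages it was at 75.2, 125 and 77.5 CPM with PBS, 32.8, 164 and 68.2 CPM with rIL-13 and 42.8, 109 and 56.6 CPM with rIL-4. In microglia of the same mice it was at 7.90, 12.0 and 7.01 CPM with PBS, 17.2, 10.9 and 9.79 CPM with rIL-13 and 6.07, 15.7 and 9.81 CPM with rIL-4. The highest microglia library was below the lowest macrophage library. With PBS the level in microglia was 10.5-fold lower, a log2 fold change of -3.40 (SE 0.28) with an adjusted p of 3.54e-05 in edgeR's test. The difference was -2.79 (SE 0.57) with rIL-13 and -2.69 (SE 0.47) with rIL-4, with adjusted p of 0.0103 and 0.00536 in edgeR's test. Without the macrophages of mouse 6, which had the most Trem1, the rIL-13 difference was -2.02 (adjusted p of 0.0211 in edgeR's test), and without the microglia of that mouse -2.72 (0.0278).

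Trem3, the DAP12-coupled neighbour of Trem1, followed the same order at a lower level. It was at 6.25, 11.5 and 8.09 CPM in PBS macrophages, 5.22, 13.7 and 6.01 CPM in rIL-13 macrophages and 4.73, 7.41 and 5.28 CPM in rIL-4 macrophages, and at no more than 2.56 CPM in any microglia library. With PBS the log2 fold change was -2.82 (SE 0.61) with an adjusted p of 0.0058 in edgeR's test, and of 0.072 with all 18 libraries in a model. With rIL-13 it was -2.84 (SE 0.88) with an adjusted p of 0.0489, a call that was lost in edgeR's test without the macrophages of mouse 5 (0.0858), 6 (0.172) or 7 (0.104) or the microglia of mouse 5 (0.0814) or 7 (0.122), with DESeq2's size factors (0.0507) and with all 18 libraries in a model (0.0599). The log2 fold change was -2.31 without the macrophages of mouse 6 and -4.27 without its microglia (adjusted p of 0.00525 in edgeR's test). With rIL-4 it was -2.15 (SE 1.31), with an adjusted p of 0.308 in edgeR's test.

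In macrophages the mouse with the most Trem1 was also that with the most Trem3 in each treatment, and these were mice 2, 6 and 9. The same libraries had the highest sum of neutrophil markers of their treatment, at 1891, 3493 and 1040 CPM, against 312 to 1174 CPM in the 6 others. Their part in the levels of Trem1 and Trem3 was not tested. The neutrophil marker Ly6g was at 0.428 to 5.98 CPM over the macrophage libraries, S100a8 at 64.9 to 1420 CPM and Cxcr2 at 15.9 to 161 CPM. In microglia, where the sum of neutrophil markers was at most 329.8 CPM and Ly6g was listed at 0 in 7 of 9 libraries, Trem3 was again highest in mice 2, 6 and 9, at 2.39, 2.56 and 2.24 CPM. There, however, these mice had the lowest neutrophil sum of their treatment, at 203.9, 93.1 and 121.6 CPM. Trem1 in microglia was highest in mice 2 and 9 of their treatments, but in mouse 5 with rIL-13, at 17.2 CPM against 10.9 CPM in mouse 6, and that library had the highest neutrophil sum of the microglia.

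Syk, the kinase shared by many receptors with an activation motif, varied little within a cell type. It was at 147, 136 and 137 CPM in PBS macrophages, 128, 109 and 163 CPM in rIL-13 macrophages and 169.8, 129.9 and 142 CPM in rIL-4 macrophages, against 42.7 to 70.3 CPM in the 9 microglia libraries. The log2 fold change in microglia was -1.15 (SE 0.12) with PBS, -1.44 (SE 0.21) with rIL-13 and -1.26 (SE 0.16) with rIL-4. The adjusted p was 0.000155, 0.00292 and 0.00141 in edgeR's test, and the call held in every fit that left out a library. Leaving out the macrophages or the microglia of mouse 6 gave -1.60 and -1.57 with rIL-13.

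Tyrobp was lower in PBS microglia than in PBS macrophages by 0.54 (SE 0.14) on the log2 scale, with an adjusted p of 0.0153 in edgeR's test, and the adjusted p was 0.0551 and 0.0585 without the macrophages of mouse 2 or 3 and 0.0871 with all 18 libraries in a model. In the cytokine groups the difference was -0.53 (SE 0.23) with rIL-13 and -0.09 (SE 0.20) with rIL-4, with adjusted p of 0.145 and 0.81 in edgeR's test. With rIL-13 it was -0.56 without the macrophages and -0.37 without the microglia of mouse 6. Trem2 did not pass the test between the cell types with any treatment. Its difference in PBS mice was -0.36 (SE 0.15), with an adjusted p of 0.085 in edgeR's test and 0.0133 without the microglia of mouse 1. Hcst was at 7.12, 4.27 and 4.23 CPM in PBS microglia and at 6.65, 10.0 and 7.67 CPM in PBS macrophages, with a difference of -0.67 (SE 0.32) and an adjusted p of 0.126 in edgeR's test, and 0.0359 without the microglia of mouse 1. The sum of 12 markers of NK cells and T cells, which use DAP10, was 0 to 7.24 CPM in microglia and 2.83 to 10.2 CPM in macrophages. Ncr1 was at 0 in all 18 libraries. The median of the sum in microglia was 0.612 CPM with PBS, 0.629 CPM with rIL-13 and 0.0544 CPM with rIL-4. Hcst was at 2.85 to 7.33 CPM over the microglia libraries. In PBS macrophages the sum, at 2.83 to 4.18 CPM, was below Hcst, and in macrophages with either cytokine the ranges overlapped. The part of these cells in the level of Hcst was not tested.

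Treml4 in PBS microglia was below all PBS macrophage libraries, with a log2 fold change of -2.23 (SE 0.88) that missed the threshold in edgeR's test (adjusted p of 0.0753). With the mouse as a replicate block it was -3.02, with an adjusted p of 0.0212 in edgeR's test, which made 5 of 8 members called. The call was also made without the microglia of mouse 1 (0.0408) or 3 (0.00967), with DESeq2's Wald test (0.0203) and with all genes that had any count (0.0469).

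Leaving out a library of mouse 9 changed the call of 1 printed fold change of a member with rIL-4, that of Trem2 in macrophages, which was then -0.61 (adjusted p of 0.106 in edgeR's test). In macrophages Treml4 was at -2.46 (0.0021 in edgeR's test), Tyrobp at -0.67 (0.0459) and Treml2 at 0.45 against PBS, and Tyrobp at -0.41 against rIL-13. In microglia Trem2 was at -0.54, Treml2 at 0.84 and Tyrobp at -0.086 against PBS. Between the cell types with rIL-4, the difference without the macrophages or the microglia of mouse 9 was -2.23 and -3.07 for Trem1, -1.95 and -2.80 for Trem3, -1.36 and -1.20 for Syk and -0.10 and 0.094 for Tyrobp. The interaction with rIL-4 was -0.071 and 0.193 for Trem2, 0.40 and 0.54 for Tyrobp and 1.97 and 2.04 for Treml4.

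**Figure D3:**
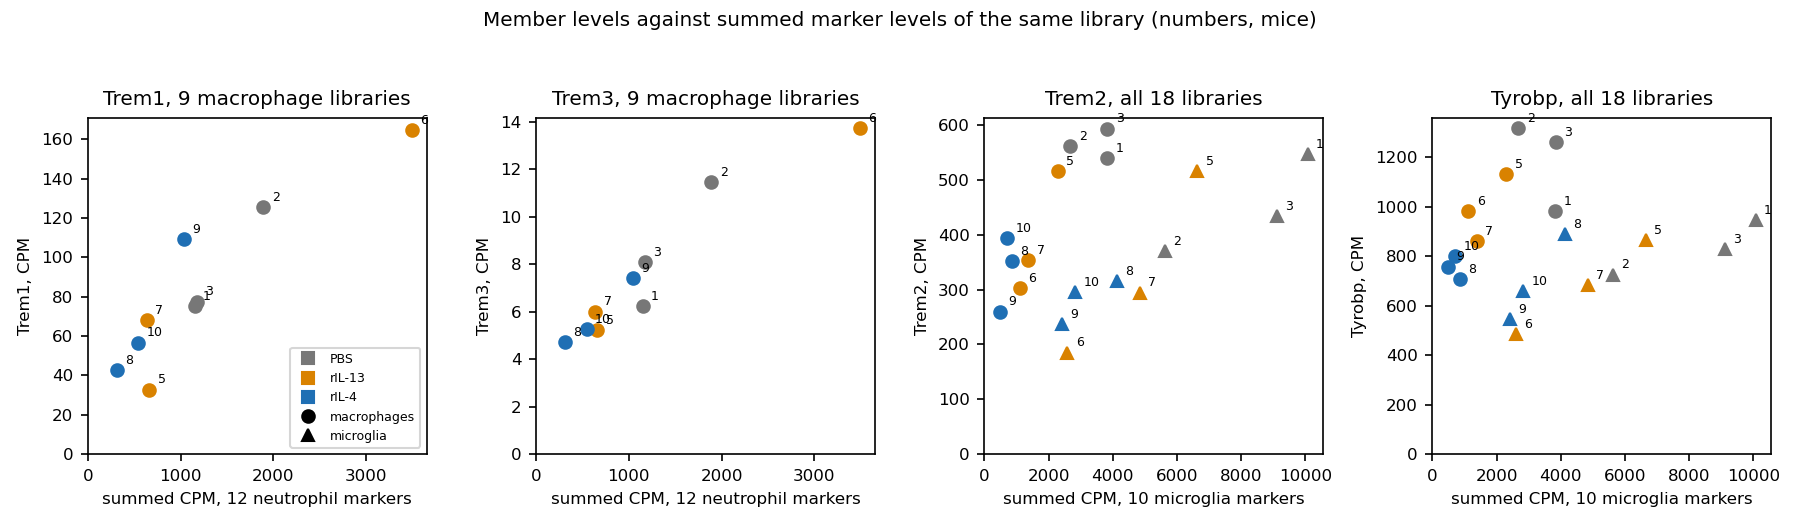
Trem1 and Trem3 in the 9 macrophage libraries against the summed CPM of 12 neutrophil markers, and Trem2 and Tyrobp in all 18 libraries against the summed CPM of 10 microglia markers, both axes from 0 in CPM; colours are treatments, circles macrophages, triangles microglia and numbers mice. The macrophages of mouse 6 lie at the upper right for Trem1 and Trem3, at 164 and 13.7 CPM, and PBS macrophages, at 539 to 594 CPM of Trem2, lie at a lower level of microglia markers than PBS microglia, at 371 to 547 CPM of Trem2.

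Genes that act with the receptors were described through lists of their ligands and shedding enzymes, of other DAP12- or DAP10-coupled receptors, of the SYK pathway and of its inhibitors, beside Treml1 and Treml6 of the same locus, of which at most 1 was tested and none called. In macrophages rIL-4 changed 15 of the 60 listed genes that were tested, 11 of them lower and 4 higher, against 7.2% and 6.77% of all genes. Of the SYK pathway, the longest list, 6 of 27 were lower and 1 higher, at a median of -0.26 against 0.02 for all genes. Pik3ap1, an adaptor that binds phosphoinositide 3-kinase, was at 168 ± 2.15 CPM (SD, n = 3) with PBS and 63.8 ± 3.46 CPM with rIL-4, a log2 fold change of -1.40 (SE 0.12) with an adjusted p of 0.000103 in edgeR's test. The exchange factor Vav1 fell by 0.83 (SE 0.12) on the log2 scale, with an adjusted p of 0.00161 in edgeR's test. Of the coupled receptors 2 of 11 were lower and 1 higher, and of the ligands 1 of 9 was lower. Siglech, a DAP12-coupled receptor that is also one of the microglia markers above, fell from 28.7 ± 13.6 to 1.60 ± 1.02 CPM (SD, n = 3), with an adjusted p of 0.003 in edgeR's test. The inhibitors went both ways, with 2 lower and 2 higher of 12. Cblb, a ubiquitin ligase that restrains tyrosine kinase signalling, rose from 41.2 ± 7.70 to 149 ± 14.8 CPM (SD, n = 3), by 1.85 (SE 0.16) on the log2 scale with an adjusted p of 0.000107 in edgeR's test. The docking protein Dok2 rose by 1.70 (SE 0.29), with an adjusted p of 0.00391 in edgeR's test. These 5 genes were called in every fit that left out a library and with all 18 libraries in a model.

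With rIL-13, 6 of 60 listed genes were called in macrophages, 4 lower and 2 higher, where 4.19% of all genes were called and 1.66% were lower. Cblb rose by 1.56 (SE 0.16) and Pik3ap1 fell by 0.81 (SE 0.12) on the log2 scale, with adjusted p of 0.000792 and 0.00509 in edgeR's test, and both calls held in every fit that left out a library. Vav1 (-0.55), Ptk2b, a kinase activated by calcium (-1.01), and Dok2 (1.25) were called as well, with adjusted p of 0.0299 to 0.0413 in edgeR's test. These 3 calls depended on single libraries and on the processing. Those of Vav1 and Ptk2b were lost without any PBS or rIL-13 library or rIL-4 mouse 10, at 0.0547 to 0.119 and 0.0522 to 0.128 in edgeR's test. That of Dok2 was lost without any PBS library, rIL-13 mouse 6 or 7 or rIL-4 mouse 8 or 10, at 0.0547 to 0.159 in edgeR's test. With all 18 libraries in a model the adjusted p of the 3 genes was 0.142, 0.144 and 0.051 in edgeR's test. With only the 6 libraries compared, Vav1 (0.0539) and Dok2 (0.0525) were lost as well, and with all genes that had any count Vav1 was lost (0.0515). The comparisons of both cytokines used the same PBS libraries. Between rIL-4 and rIL-13, 0 of 60 were called in macrophages and 0 of 58 in microglia.

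In microglia rIL-4 changed 5 of 58 listed genes, 4 higher and 1 lower, and rIL-13 changed 0, where 2.22% and 0.366% of all genes were called. The 4 higher genes had higher levels in PBS macrophages than in PBS microglia. The sum of 10 markers of monocyte-derived macrophages was higher in these microglia libraries too, at 1079 to 1888 CPM with rIL-4 against 733.9 to 936.7 CPM with PBS. The markers did not move as one. F10 was at 62.7 to 141 CPM with rIL-4 against 4.65 to 21.8 CPM with PBS. Ccr2, at 22.85 to 63.1 against 10.3 to 28.3 CPM, and Ly6c2, at 5.89 to 13.3 against 1.57 to 12.8 CPM, overlapped. The part of these markers was not tested. Lgals3, which encodes galectin-3, a ligand of TREM2, rose from 374 ± 120.3 to 1598 ± 239 CPM (SD, n = 3), by 2.12 (SE 0.24) on the log2 scale with an adjusted p of 0.00289 in edgeR's test. Cblb rose by 2.07 (SE 0.27) and Dok2 by 1.98 (SE 0.29), with adjusted p of 0.00683 and 0.0108 in edgeR's test. Sirpb1c, a DAP12-coupled receptor of a family of close copies that could share reads, rose by 1.58 (SE 0.26), and Pilra, an inhibitory receptor, fell by 1.88 (SE 0.33). Their adjusted p was 0.0178 and 0.0218 in edgeR's test, and both were lost without any PBS library, at 0.0691 to 0.0888 and 0.0779 to 0.0944. Pilra was lost as well without rIL-4 mouse 8 (adjusted p of 0.0519 in edgeR's test) or 10 (0.0705) and with all 18 libraries in a model (0.0803). Dok2 was lost without PBS mouse 1 (adjusted p of 0.07 in edgeR's test) or 3 (0.0578), whereas Lgals3 and Cblb were called in every fit that left out a library.

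Between the cell types, 8 of 11 other DAP12- or DAP10-coupled receptors tested in PBS mice were lower in microglia and 1 higher, where 16.3% of all genes were lower. Their median log2 fold change was -2.67 against 0.04 for all genes. It was 4 of 12 lower with rIL-4 and 6 of 11 with rIL-13, where 9.97% and 9.46% of all genes were lower. Sirpb1c was at 15.9 ± 2.94 CPM in microglia and 233 ± 72.2 CPM in macrophages (SD, n = 3), a log2 fold change of -3.91 (SE 0.25) with an adjusted p of 1.16e-05 in edgeR's test. Cd300lb and Cd200r4, which also pair with DAP12, differed by -2.25 (SE 0.14) and -3.08 (SE 0.24) on the log2 scale. Of 27 genes of the SYK pathway, 12 were lower and 2 higher, among them the Src-family kinase Fgr at -2.81 (SE 0.22) and the phospholipase Plcg1, which was higher in microglia by 2.42 (SE 0.23). The adjusted p of these 4 genes was between 1.04e-05 and 6.86e-05 in edgeR's test. Plcg1 and Fgr differed in the same direction with rIL-13, by 2.82 (SE 0.38) and -2.43 (SE 0.19), and with rIL-4, by 2.35 (SE 0.23) and -1.95 (SE 0.22). Without either library of mouse 6 both were called with rIL-13, at 2.61 to 2.96 and -2.56 to -2.36. Among ligands, the lipid carrier gene Clu was at 41.1 ± 29.0 CPM in rIL-4 microglia and 0.409 ± 0.0433 CPM in rIL-4 macrophages (SD, n = 3), and Pglyrp1, which encodes a ligand of TREM1, at 39.8 ± 17.1 and 2.89 ± 1.11 CPM. The same microglia libraries held 1810 to 2310 CPM of endothelial and 217 to 1550 CPM of fibroblast and pericyte markers. In rIL-4 macrophages these were at 229 to 435 and 0.282 to 1.23 CPM. Astrocyte markers overlapped, at 75.8 to 157 CPM in rIL-4 microglia and 54.6 to 495 CPM in rIL-4 macrophages. The part of these cell types in Clu, Pglyrp1 and Plcg1 was not tested. Over all lists 18 of 60 genes were called in the rIL-4 mice, 5 of them higher in microglia, and 20 of 58 in the rIL-13 mice, also 5 higher, where 23.4% and 26.7% of all genes were called.

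**Figure D4:**
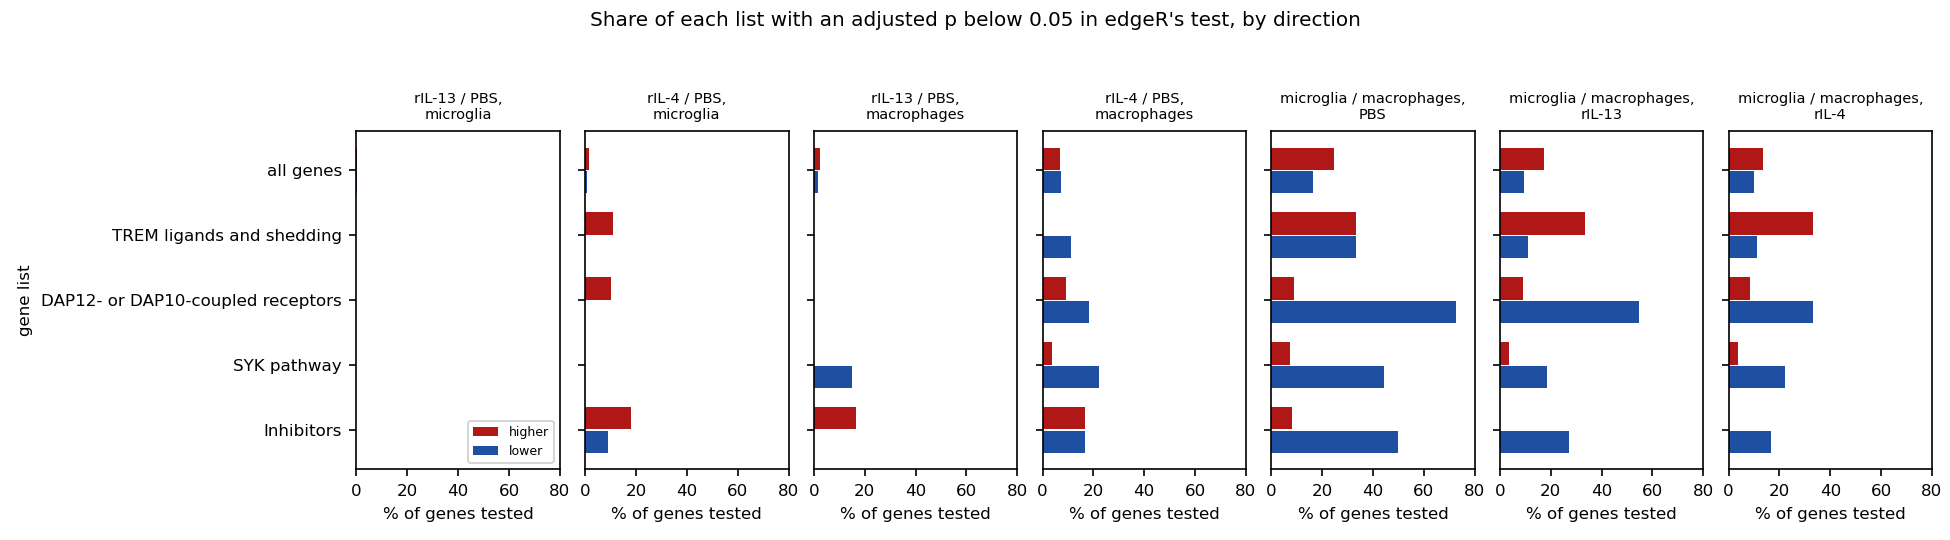
Share of the tested genes of each list (horizontal axes, percent) with an adjusted p below 0.05 in edgeR's test in 7 comparisons, higher in red and lower in blue, beside the share of all genes tested. With rIL-4 in macrophages 6 of 27 SYK pathway genes are lower and 1 is higher, and in PBS mice 8 of 11 coupled receptors are lower in microglia than in macrophages.

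The genes whose levels went along with a member over the 18 libraries were listed after the mean of each cell type had been subtracted, for the 10191 genes whose count was 10 or more in each of them. These are descriptions over libraries that share treatments, depth and cell composition, and carry no test. For Trem2 the highest Pearson correlations were those of Ctsh, a lysosomal protease gene (0.951), Syngr1 (0.936), Mpeg1, which encodes a pore-forming protein of phagocytes (0.932), Plxdc1 (0.929) and Lyl1 (0.928). For Tyrobp they were Rgs10 (0.922), Tnfaip8l2 (0.920), Aif1, which encodes the myeloid marker IBA1 (0.915), Slc11a1 (0.906) and Ptpn18 (0.894). Trem2 and Tyrobp correlated with each other at 0.847. For Trem1 they were Srsf5 (0.862), the NF-kappaB inhibitor gene Nfkbia (0.827), Ier3 (0.822), Fbxl5 (0.822) and S100a8 (0.821), the last of which is one of the 12 neutrophil markers. Trem1 correlated with Trem2 at -0.19 and with Syk at -0.54, and the median over all genes was between -0.01 and 0.02 for the 3 members.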

How the data were processed

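Sorted microglia and macrophages were profiled by SMART-seq2, which uses no molecular identifiers and no strand mark, so that intervals for counts cover counting error only. The authors used STAR 2.5.3a on GRCm38 and deposited expected counts per gene from RSEM 1.3.0, as the submitters' processing notes name them, given as whole numbers and not normalized. All counts were used as deposited. Each library had 35961305 to 45849829 counts. Symbols were matched to positions and lengths in GENCODE annotation of the same build; promoters were taken from RefSeq (GRCm38.p6), where 5 of 8 members had an entry.

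Genes were tested on the whole table with edgeR 4.0.16 (R 4.3.3): quasi-likelihood test, TMM, filterByExpr, Benjamini-Hochberg adjustment over all genes kept and a threshold of 0.05. All 8 members passed the filter in each of the 11 comparisons. Treatments were compared in the 9 libraries of a cell type, cell types in the 6 libraries of a treatment, and interactions in all 18. SE were derived from the F statistic. Alternatives were DESeq2 1.42.0, its size factors, other filters (any count, at least 10 counts in every library), other sets of libraries, each library left out, and the mouse as a block. The length of the longest protein-coding transcript was added after the data had been seen. Correlations used log2 CPM with a prior count of 2. Both cell types came from the same animals, which pairs them, and their deviations from group means correlated at 0.063 to 0.263, above 0.1 in 7 of 9 mice. The statistical scripts were tested on simulated data.

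The members and lists were chosen with earlier results of these data known. Named were all 8 members, of the lists up to 6 called genes of lowest adjusted p per comparison, and for Trem1, Trem2 and Tyrobp the 5 genes of highest correlation; 1 listed gene that the rule names is counted in its list but not reported here by name. Replicates were separate mice.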

Additional observations from a re-analysis of the deposited data

Results flagged for a closer look

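The response of Lgals3, which encodes galectin-3, a ligand of TREM2, differed between the cell types by the test of the difference itself. The log2 change with rIL-4 against PBS was 1.71 (SE 0.30) higher in microglia than in macrophages, with an adjusted p of 0.0124 for the interaction in edgeR's quasi-likelihood test. It was the only gene of the 61 tested from the lists that was called for rIL-4, where 0.992% of all genes were called, and none was called for rIL-13. Lgals3 was at 374 ± 120.3 CPM in PBS and 1598 ± 239 CPM in rIL-4 microglia, and at 3172 ± 526 CPM in PBS and 4132 ± 499.7 CPM in rIL-4 macrophages (SD, n = 3). The summed level of 10 markers of monocyte-derived macrophages in the microglia libraries was 733.9 to 936.7 CPM with PBS and 1079 to 1888 CPM with rIL-4. The markers did not move as one, and Ccr2 and Ly6c2 among them overlapped between these groups. Their part in the difference was not tested. None of the 8 TREM members was called for this interaction, where that of Treml4 had a 95% interval from -3.51 to 6.41. A test for outlying samples by their gap to the others was not run on groups of 3 mice.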

How the results depend on the processing

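Under another tool, filter, scaling, set of libraries or the mouse as a block, 392 recomputed log2 fold changes kept their direction and their side of the threshold, 16 lost the call, 3 gained it and 2 changed sign. With 1 library left out, 498 kept both, 60 lost the call, 4 gained it and 5 changed sign.

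A model of all 18 libraries, which also tests more genes, moved the counts of members called to 0 with rIL-4 and 0 with rIL-13 in macrophages and 2 between the cell types with PBS. With 1 library left out, 1 to 3 members were called with rIL-4 in macrophages, 0 to 1 with rIL-13 in macrophages, 3 to 7 between the cell types with PBS, and 2 to 3 with rIL-4 and with rIL-13. The 7 members were reached without the microglia of PBS mouse 1. The cause was not tested.

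With the mouse as a replicate block, 5, 2 and 3 members were called between the cell types with PBS, rIL-4 and rIL-13 and 0 in both interactions. The pairing changed the call of Treml4 with PBS and no other call of a member, and it moved no total of genes called by more than 1.5 times. Some differences changed sign. The Treml4 interaction with rIL-4, 1.45 with an SE of 2.34, was -1.16 under the block and ran from -4.99 to 2.90 with 1 library left out, and that of Trem2 from -0.071 to 0.245. Between the cell types with rIL-4, Tyrobp was at 0.002 when only genes whose count was 10 or more in each library were kept, and from -0.313 to 0.094 with 1 library left out. That filter drops Trem3 and Treml4 from fits in which a microglia library had fewer.

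Over all genes, DESeq2 called 1479 genes against 345 for rIL-4 in microglia (646 higher and 833 lower against 207 and 138), 404 against 57 for rIL-13 (224 and 180 against 44 and 13) and 743 against 6 between the cytokines. In macrophages it called 1112 against 570 for rIL-13 (559 and 553 against 344 and 226) and 399 against 34 between the cytokines (151 and 248 against 4 and 30), and in the interactions 777 against 164 and 183 against 4. The model of 18 libraries called 949, 172 and 138 in microglia, and 1053 (against 1900 for rIL-4), 257 and 70 in macrophages. Fits of the 6 libraries compared called 37 for rIL-13 and 0 between the cytokines in microglia, and 7 between the cytokines in macrophages, where genes with any count gave 209 (58 and 151). The strict filter gave 0 between the cytokines in microglia and 2 in the rIL-13 interaction. In the rIL-4 interaction the split was 81 higher and 83 lower, 110 and 60 with any count, and 122 and 66 under the block.

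Of the levels per length, 100 moved by less than the spread between mice under another length or scaling and 44 by more. Leaving out 1 library moved totals of genes called by over 1.5 times in all comparisons but that of the cell types with PBS. With rIL-4 in microglia it was 81, 128 and 75 without PBS mice 1, 2 and 3 and 184 without rIL-4 mouse 10, and with rIL-4 in macrophages 1188, 1234, 1041 and 1102 without the same mice. With rIL-13 the lowest were 22 in microglia and 199 in macrophages without PBS mouse 3, between the cytokines 0 and 1, between the cell types 1684 with rIL-4 and 2132 with rIL-13, and in the interactions 52 and 0. Counts of Trem3 and Treml4 in microglia varied too much between mice for the cytokines to be compared. What each sorted population held besides its label was measured only by marker genes.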
